A study of Mus musculus with 6 samples.

Results

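The genes described here copy the chromosomes: 43 genes of DNA replication and S phase, taken by name from a deposited table of gene counts. All 43 were found under 1 Ensembl identifier each among 55487 genes, and all 43 had enough counts to be tested, out of 21141 genes tested. The cells were MIN6, an insulinoma-derived mouse line that secretes insulin and stands in for beta cells of the pancreas. The 3 PTHrP libraries came from MIN6 cells transiently transfected with full-length parathyroid hormone-related protein, and the 3 DsRed libraries from cells given the empty DsRed vector, both with lipofectamine and both sampled at most 3 days later. All 6 libraries share the one cell line and the transfection, no untransfected library was analysed here, and the sources used here do not give the promoter that drives the transgene.

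Replication starts when the origin recognition complex (ORC), CDC6 and CDT1 load the ring-shaped MCM2-7 helicase onto DNA in G1, with geminin holding CDT1 back once S phase has begun. CDC45 and GINS then join the helicase, DNA polymerase alpha-primase lays down primers, and polymerases delta and epsilon extend them on the sliding clamp PCNA, which the RFC complex loads. Adult beta cells divide rarely, while MIN6 cells are a transformed, cycling line, and the transcription of many of these genes is driven by E2F factors at the G1/S boundary. PTHrP has been studied as a growth factor for beta cells, which is the background to looking at these genes.

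Pthlh, the gene of PTHrP, matched the library labels, with 697, 553 and 797 counts in PTHrP libraries and 0, 4 and 8 counts in DsRed libraries. Its level was 6.50 to 8.37 counts per 1000000 counts of the library (CPM) in PTHrP libraries and at most 0.09 CPM in DsRed libraries. The share of transfected cells was not measured here, and values from whole cultures average over all cells. Libraries held 84427033 to 94613684 counts. The 9 beta cell markers were present in both groups, with a summed level of 48483 to 54997 CPM in PTHrP libraries and 49944 to 61940 CPM in DsRed libraries. Markers of delta, PP, fibroblast, endothelial, leukocyte, acinar and duct cells summed to at most 5.36 CPM per list in any library. Of the alpha cell markers, Gcg was present at 135 to 175 CPM in PTHrP libraries and 144 to 153 CPM in DsRed libraries.

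No replication gene passed the test between PTHrP and DsRed cells. The count of members with an adjusted p under 0.05 was 0 of 43 (edgeR quasi-likelihood test, Benjamini-Hochberg adjustment over all genes tested), against 9 of 21141 genes, or 0.0426% of all genes tested (0.0189% higher and 0.0237% lower in PTHrP). The smallest adjusted p among the members was 0.367, for Cdc6. DESeq2, which called 1.09% of the genes it adjusted, and limma-voom, which called 0.0851%, also called 0 members. At an unadjusted p under 0.05 there were 4 members with edgeR, or 9.3%, against 8.9% of all genes tested and 13% of the genes at or above the mean CPM of the lowest member. Of the 4, 2 were higher in PTHrP (4.92% of all genes were) and 2 lower (3.98%). By the same measure DESeq2 gave 4 members (8.72% of its genes) and limma-voom 5 (9.29%). Positive fold changes were seen for 20 members and negative ones for 23 (48.7% of all genes tested had a positive one), and the median log2 fold change was -0.0027, against -0.0068 over all genes tested. The RNA is from whole cultures, so the share of cells in S phase and the RNA per cell in S phase cannot be told apart.

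The intervals of the differences were narrow. For 27 of the 43 members, or 62.8%, the 95% interval of the fold change lay within 1.2-fold in either direction, a limit chosen after the data were seen. The same was true of 20.8% of all genes tested and of 43.3% of the 10163 genes at or above the mean CPM of the lowest member. Among 25 G2/M and mitotic genes, set beside the members below, the share was 72%. The 16 members whose intervals reached past that limit were Orc1, Cdc6, Mcm7, Mcm10, Cdc45, Gins1, Gins2, Gins3, Pold1, Pole, Pole2, Rfc1, Rpa1, Rpa3, Lig1 and Fen1. The widest was that of Gins1, from -0.10 to 0.60 on the log2 scale. The approximate standard error (SE) of the members' log2 fold changes was 0.05 to 0.16, and small differences may go undetected with 3 libraries in each group. The intervals are not adjusted for the number of genes tested. Those of Cdc6, Orc1, Mcm7 and Cdc45 excluded 0, yet none of these genes passed.

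**Figure D1:**
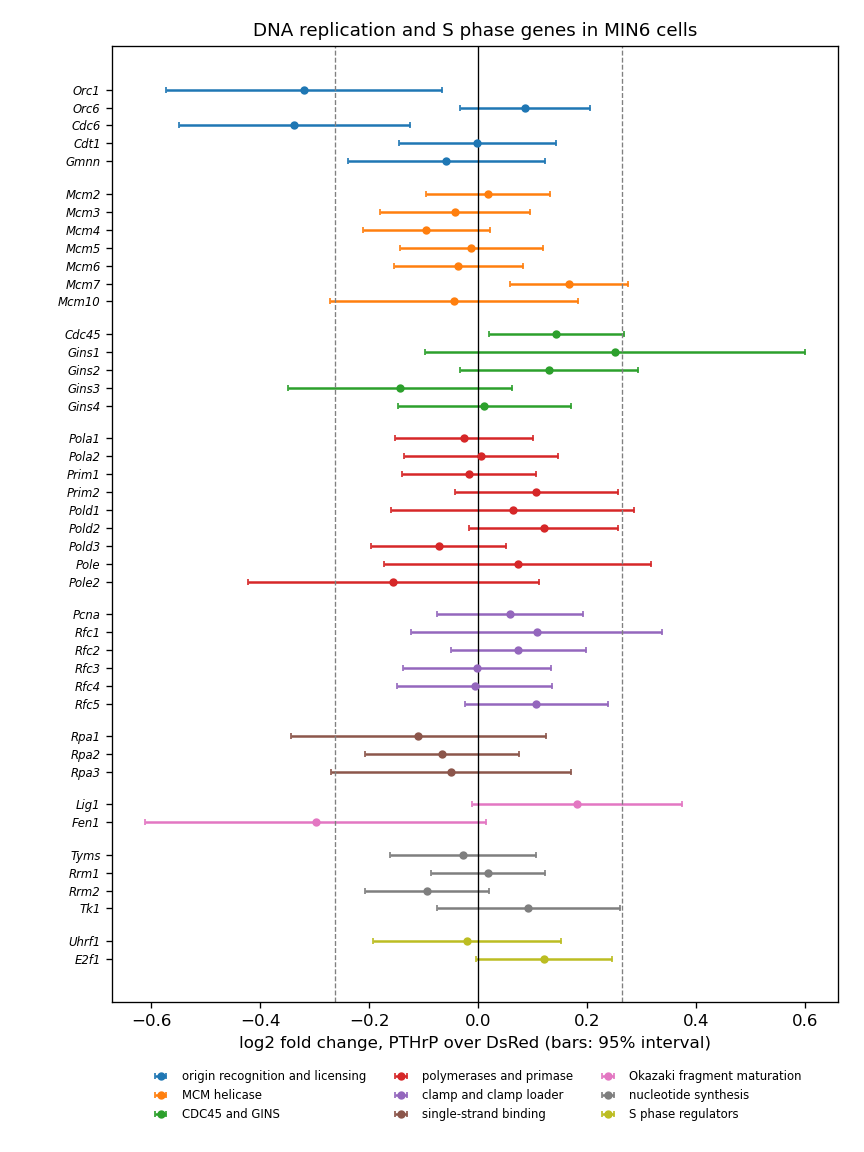
Log2 fold change of each of the 43 genes, PTHrP over DsRed, on the horizontal axis, with genes down the page in order of role and bars for the 95% interval. Dashed lines mark 1.2-fold, and 27 of the 43 intervals stay between them; Cdc6 and Orc1 lie farthest to the left and Gins1 farthest to the right.

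Promoters are shown for 3 members because E2F motifs lie in them and because they cover the pattern of the values: Cdc6 had the smallest p among members with lower levels in PTHrP, Mcm7 the smallest among those with higher levels, and Cdt1 had nearly equal levels. Each sequence runs 5′ to 3′ on the strand of its gene, from 250 bases before to 50 bases after the transcription start (RefSeq, GRCm38.p6), and capitals mark a match to TTTCCCGC or TTTGGCGC or to their reverse complements. The Cdc6 window is chr11:98907901-98908200 on the plus strand, with a match starting at position -138, and lies inside the GENCODE M21 gene, whose first base is further upstream. The Cdt1 window is chr8:122567765-122568064 on the plus strand, with a match starting 33 bases into the transcript. For Mcm7 the window is chr5:138171834-138172133 on the minus strand, which is 1 of 2 listed starts, with a match at position -165.

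Cdc6: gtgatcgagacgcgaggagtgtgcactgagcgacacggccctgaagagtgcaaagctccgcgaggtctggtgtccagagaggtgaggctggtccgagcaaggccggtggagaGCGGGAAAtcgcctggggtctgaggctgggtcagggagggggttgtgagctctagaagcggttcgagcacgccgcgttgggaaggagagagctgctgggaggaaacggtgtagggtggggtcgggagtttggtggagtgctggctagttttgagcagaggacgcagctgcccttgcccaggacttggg
Cdt1: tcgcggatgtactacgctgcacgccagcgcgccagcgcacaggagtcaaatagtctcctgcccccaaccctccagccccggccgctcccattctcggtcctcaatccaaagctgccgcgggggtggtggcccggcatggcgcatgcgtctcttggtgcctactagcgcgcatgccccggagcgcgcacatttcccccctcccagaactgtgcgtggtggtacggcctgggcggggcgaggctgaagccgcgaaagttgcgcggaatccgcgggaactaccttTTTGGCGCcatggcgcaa
Mcm7: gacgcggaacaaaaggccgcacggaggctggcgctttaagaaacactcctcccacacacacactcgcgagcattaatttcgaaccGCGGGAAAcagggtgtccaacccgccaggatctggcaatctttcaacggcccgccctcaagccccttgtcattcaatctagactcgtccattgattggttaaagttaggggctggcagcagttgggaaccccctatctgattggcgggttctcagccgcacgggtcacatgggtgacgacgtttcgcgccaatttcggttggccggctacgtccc

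Promoter sequences were listed for 35 of the 43 members. Of these, 12 (34.3%) held at least 1 of the E2F motifs on either strand, against 1.8% of 27025 genes with a listed promoter of the same length. TTTCCCGC was in 7 member promoters (20%, against 1.24% of genes) and TTTGGCGC in 6 (17.1%, against 0.585%), with Mcm3 holding both. The CCAAT box was in 22 member promoters (62.9%, against 41.1% of genes). The short elements TTTGAA and TTTAAA, known from genes of late G2 and mitosis, were in 5 and 4 member promoters (14.3% and 11.4%), against 20.2% and 14.9% of genes. Members with an E2F motif had a median log2 fold change of -0.03, from -0.34 for Cdc6 to 0.17 for Mcm7, and members without one a median of 0.0058, from -0.32 for Orc1 to 0.18 for Lig1. Both sets spanned 0, with positive values for 2 of the 12 and 12 of the 23. Only these 2 exact E2F motifs were searched, so members without one may hold other forms of E2F site. Some windows, such as those of Cdc6, Mcm7 and E2f1, lie inside the GENCODE M21 gene, and bases further upstream were not searched. The 2 sets therefore do not separate E2F targets from other genes.

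Among the licensing genes, the lowest p belonged to Cdc6, the ATPase that helps to load MCM2-7. Cdc6 (chr11:98907801-98923940, plus strand) had 102, 86.4 and 99.0 CPM in PTHrP libraries and 136, 123 and 105 CPM in DsRed libraries. All 3 PTHrP libraries were below all 3 DsRed libraries, though PTHrP replicate 1 and DsRed replicate 3 nearly met. The log2 fold change was -0.34 (SE 0.10, 95% interval -0.55 to -0.13, edgeR adjusted p = 0.367). It was -0.43 without DsRed replicate 3 and -0.25 without DsRed replicate 1, with adjusted p from 0.186 to 0.949 over the 6 fits that each left out 1 library. With no filter on low counts the adjusted p was 0.00522, the single case in which a member passed, in a fit that called 220 of 44413 genes (0.495%).

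Orc1, the ORC subunit that comes and goes with the cell cycle in mammalian cells, showed a similar pattern. It had 12.3, 12.1 and 13.5 CPM in PTHrP libraries and 16.9, 17.1 and 13.3 CPM in DsRed libraries. DsRed replicate 3 lay among the PTHrP libraries, so the groups overlapped, and the log2 fold change was -0.32 (SE 0.12, interval -0.57 to -0.07, edgeR adjusted p = 0.441). Without DsRed replicate 3 it was -0.43 (adjusted p = 0.330). An annotated transcript on the opposite strand, Gm12743, overlaps 376 of the 3479 exon bases of Orc1, and its mean level was 1.34 CPM in PTHrP libraries and 1.26 CPM in DsRed libraries.

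The other licensing genes differed little. Cdt1, which brings MCM2-7 to the origin, had 187, 167 and 182 CPM in PTHrP libraries and 188, 181 and 167 CPM in DsRed libraries, a log2 fold change of -0.0014 with an interval of -0.14 to 0.14. Gmnn, which encodes its inhibitor geminin, had 20.4, 20.3 and 20.9 CPM in PTHrP libraries and 22.6, 20.2 and 21.5 CPM in DsRed libraries. Its log2 fold change was -0.06 with an interval of -0.24 to 0.12, and the groups overlapped for both genes. Orc6, the smallest ORC subunit, averaged 138 ± 3.42 CPM in PTHrP and 129.8 ± 2.61 CPM in DsRed (SD, n = 3 each), with a log2 fold change of 0.09 (edgeR adjusted p = 0.685). Exons of Vps35 on the opposite strand cover 171 bases of Orc6. Vps35 averaged 661 CPM in PTHrP libraries and 670 CPM in DsRed libraries, and its part in the Orc6 counts was not tested.

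The MCM helicase genes were close to equal between the groups, apart from Mcm7. For 5 of the 7, Mcm2 to Mcm6, the interval lay within 1.2-fold. Mcm2 had 768, 760.5 and 747 CPM in PTHrP libraries and 778, 756 and 714 CPM in DsRed libraries, and the log2 fold change was 0.02 (SE 0.05, interval -0.10 to 0.13). The PTHrP libraries lay inside the range of the DsRed libraries. Fold changes of Mcm3, Mcm4, Mcm5 and Mcm6, other subunits of the ring, were -0.04, -0.09, -0.01 and -0.04 on the log2 scale. That of Mcm10, which acts in activating the loaded helicase, was -0.04.

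Mcm7, another subunit of the ring, had the smallest p of the helicase genes. It had 477, 469 and 463 CPM in PTHrP libraries and 423, 426 and 407 CPM in DsRed libraries. Every PTHrP library was above every DsRed library, and the spread within each group was small. The log2 fold change was 0.17 (SE 0.05, interval 0.06 to 0.28, edgeR adjusted p = 0.370), and it stayed between 0.15 and 0.18 whichever library was left out, with adjusted p from 0.107 to 0.949. The gene (chr5:138164583-138172422, minus strand) shares 557 of its 4426 exon bases with other genes. Among these, Ap4m1 overlaps 321 bases on the opposite strand and averaged 12.4 CPM in PTHrP libraries against 10.2 CPM in DsRed libraries, and Cops6 overlaps 64 bases and averaged 285 CPM in PTHrP libraries against 278 CPM in DsRed libraries. Reads there cannot be assigned without strand, and their part in the difference was not tested.

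CDC45 and GINS complete the active helicase. Cdc45 had 96.7, 93.9 and 95.2 CPM in PTHrP libraries and 87.0, 86.6 and 85.1 CPM in DsRed libraries. The groups did not overlap, and the log2 fold change was 0.14 (SE 0.06, interval 0.02 to 0.27, edgeR adjusted p = 0.487). Exons of Ufd1 on the opposite strand cover 209 bases of Cdc45, and Ufd1 averaged 103 CPM in PTHrP libraries against 100.1 CPM in DsRed libraries. Gins1 was low and variable, with 7.97, 6.27 and 5.67 CPM in PTHrP libraries and 5.36, 4.98 and 6.38 CPM in DsRed libraries. Its groups overlapped, and the log2 fold change of 0.25 (SE 0.16, edgeR adjusted p = 0.688) moved between 0.10 and 0.36 when a library was left out. Gins2, Gins3 and Gins4 had log2 fold changes of 0.13, -0.14 and 0.01, and for Gins3 all 3 PTHrP libraries (12.6 to 12.9 CPM) were below the DsRed libraries (13.1 to 14.7 CPM).

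**Figure D2:**
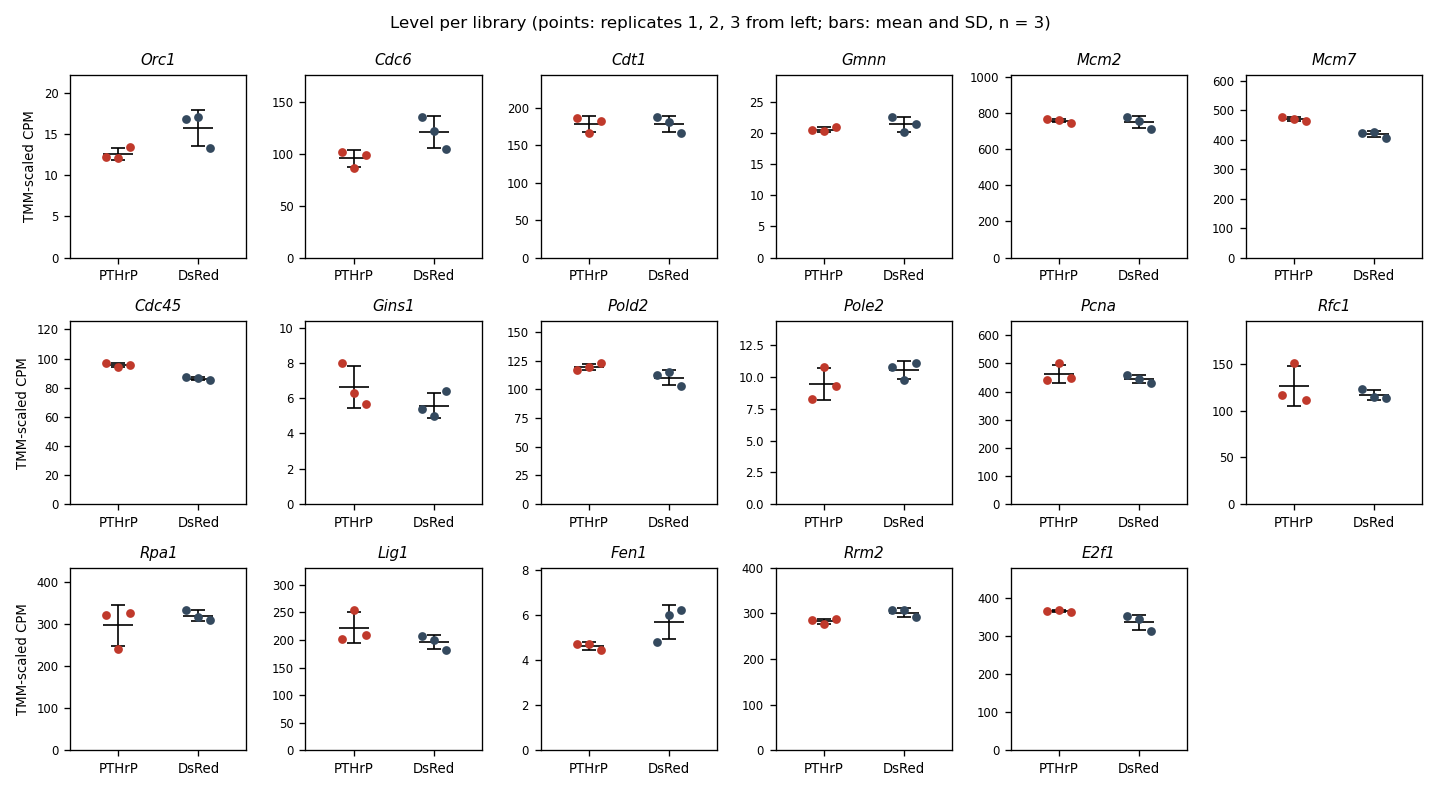
TMM-scaled CPM (vertical axes, from 0) of 17 members in each of the 3 PTHrP and 3 DsRed libraries, with the mean and SD as bars. Mcm7 and Cdc45 have PTHrP points above all DsRed points, Cdc6 and Rrm2 have them below, and in Rpa1, Rfc1 and Lig1 the middle PTHrP point, replicate 2, stands apart from the other two.

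The polymerase and primase genes gave no member with an unadjusted p under 0.05. Pold2, the second subunit of polymerase delta, had 117, 119 and 123 CPM in PTHrP libraries and 113, 115 and 103 CPM in DsRed libraries, with no overlap and a log2 fold change of 0.12 (SE 0.06, interval -0.02 to 0.26, edgeR adjusted p = 0.612). Pole2, the second subunit of polymerase epsilon, had 8.29, 10.8 and 9.30 CPM in PTHrP libraries and 10.8, 9.74 and 11.1 CPM in DsRed libraries, and the groups overlapped. Its log2 fold change was -0.16 (edgeR adjusted p = 0.755). Values for the polymerase alpha-primase genes Pola1, Pola2, Prim1 and Prim2 were -0.03, 0.0058, -0.02 and 0.11, and those for Pold1, Pold3 and the catalytic subunit Pole were 0.06, -0.07 and 0.07. Pole varied among the PTHrP libraries, with 131, 91.7 and 117 CPM in PTHrP libraries and 104, 108 and 110.0 CPM in DsRed libraries. Its log2 fold change was 0.21 without PTHrP replicate 2 (edgeR adjusted p = 0.122) and -0.04 without PTHrP replicate 1 (edgeR adjusted p = 0.934).

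At the clamp, Pcna had 441, 500.5 and 447 CPM in PTHrP libraries and 459, 445 and 429 CPM in DsRed libraries. The groups overlapped, with PTHrP replicate 2 the highest of the 6, and the log2 fold change was 0.06 (SE 0.06, interval -0.08 to 0.19). Rfc1, the large subunit of the clamp loader, followed the same library, with 116, 151 and 112 CPM in PTHrP libraries and 123, 115 and 113 CPM in DsRed libraries. Its log2 fold change was 0.11, and -0.04 without PTHrP replicate 2. The small subunits Rfc2 to Rfc5 had log2 fold changes from -0.0067 (Rfc4) to 0.11 (Rfc5). On the opposite strand, exons of Wsb2 cover 499 bases of Rfc5, and Wsb2 averaged 604 CPM in PTHrP libraries and 588 CPM in DsRed libraries. Eif4a2 likewise covers 194 bases of Rfc4, at 93.1 CPM in PTHrP libraries and 85.9 CPM in DsRed libraries. The part of these overlaps in the counts was not tested.

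Single-strand binding protein RPA protects unwound DNA. Rpa1, its large subunit, had 321, 241 and 326 CPM in PTHrP libraries and 333, 317 and 308 CPM in DsRed libraries, so that PTHrP replicate 2 was the lowest library by far while the other two lay within the DsRed range. The log2 fold change was -0.11 (SE 0.10, edgeR adjusted p = 0.814) and 0.02 without that library. Rpa2 and Rpa3 had log2 fold changes of -0.07 and -0.05.

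Lig1 and Fen1 finish the lagging strand by trimming and sealing Okazaki fragments. Lig1, the ligase, had 203, 255 and 209 CPM in PTHrP libraries and 207, 199 and 182 CPM in DsRed libraries. PTHrP replicate 1 lay inside the DsRed range and replicate 2 far above it, and the log2 fold change was 0.18 (SE 0.09, edgeR adjusted p = 0.585), or 0.07 without PTHrP replicate 2. Fen1, the flap endonuclease, had 4.72, 4.73 and 4.44 CPM in PTHrP libraries and 4.81, 6.02 and 6.24 CPM in DsRed libraries, with no overlap and a log2 fold change of -0.30 (SE 0.14, interval -0.61 to 0.01, edgeR adjusted p = 0.579). Other annotated genes on the opposite strand, Gm10143 and Tmem258, cover 84.2% of its exon bases, the largest such share among the members, and its counts are uncertain for that reason.

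The genes of deoxynucleotide supply were close to equal. Rrm2, the S phase subunit of ribonucleotide reductase, had 285, 277 and 288 CPM in PTHrP libraries and 308, 307 and 292 CPM in DsRed libraries, all lower in PTHrP, with a log2 fold change of -0.09 (SE 0.05, interval -0.21 to 0.02, edgeR adjusted p = 0.638). Rrm1, the other subunit, was the steadiest member, at 470.1, 474 and 471 CPM in PTHrP libraries and 467, 465 and 467 CPM in DsRed libraries. Its groups did not overlap at a log2 fold change of only 0.02. Tyms, which makes thymidylate, had -0.03 and Tk1, the salvage thymidine kinase, 0.09.

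E2f1 encodes the activating transcription factor of G1/S, and had 365, 368 and 361 CPM in PTHrP libraries and 350.5, 343 and 313 CPM in DsRed libraries. The PTHrP libraries were all above the DsRed libraries, with a log2 fold change of 0.12 (SE 0.06, interval -0.0043 to 0.25, edgeR adjusted p = 0.575), or 0.07 without DsRed replicate 3. Uhrf1, which carries DNA methylation through replication, had a log2 fold change of -0.02.

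In all, the groups did not overlap for 13 members, or 30.2%, with 7 higher and 6 lower in PTHrP. The share was 16.3% over all genes tested (8.45% higher and 7.88% lower) and 21.2% among the 10163 genes at or above the lowest member's level. The 7 were Orc6, Mcm7, Cdc45, Prim2, Pold2, Rrm1 and E2f1, and the 6 were Cdc6, Mcm4, Gins3, Pold3, Fen1 and Rrm2. The members also varied little within groups, with a median coefficient of variation of 4.77%, against 6.87% for genes at or above the lowest member's level.

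Single libraries stood apart for several members. PTHrP replicate 2 was more than 1.2-fold away from the mean of the other two PTHrP libraries for 6 members: it was higher for Pole2, Rfc1 and Lig1 and lower for Mcm10, Pole and Rpa1. That library stood apart across the table, with 23.7% of the 10163 genes that far off, against 12.5% and 6.9% in PTHrP replicates 1 and 3 and 3.56% to 9.01% in the DsRed libraries. Without it 213 of 22316 genes passed (0.954%), and still 0 members. In that edgeR fit 8 members had an unadjusted p under 0.05, or 18.6%, against 13% of all 22316 genes. The share among genes at or above the lowest member's level was not computed for that fit. Beta cell markers went both ways in that library. Mafa was low, with 1407, 804 and 1319 CPM in PTHrP libraries and 1389 to 1450 CPM in DsRed libraries. Pdx1 and Nkx6-1 were also lower there than in PTHrP replicates 1 and 3, while Ins1, Ins2, Iapp, Slc2a2, G6pc2 and Ucn3 were higher. Iapp had 6254, 8495 and 6769 CPM in PTHrP libraries and 7310 to 8432 CPM in DsRed libraries. The part of such library differences in the members' values was not tested. DsRed replicate 3 gave the lowest value of the 6 libraries for 16 members and DsRed replicate 1 the highest for 17. Summed over the members, levels were 8157, 8009 and 8165 CPM in PTHrP libraries and 8321, 8105 and 7686 CPM in DsRed libraries.

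**Figure D3:**
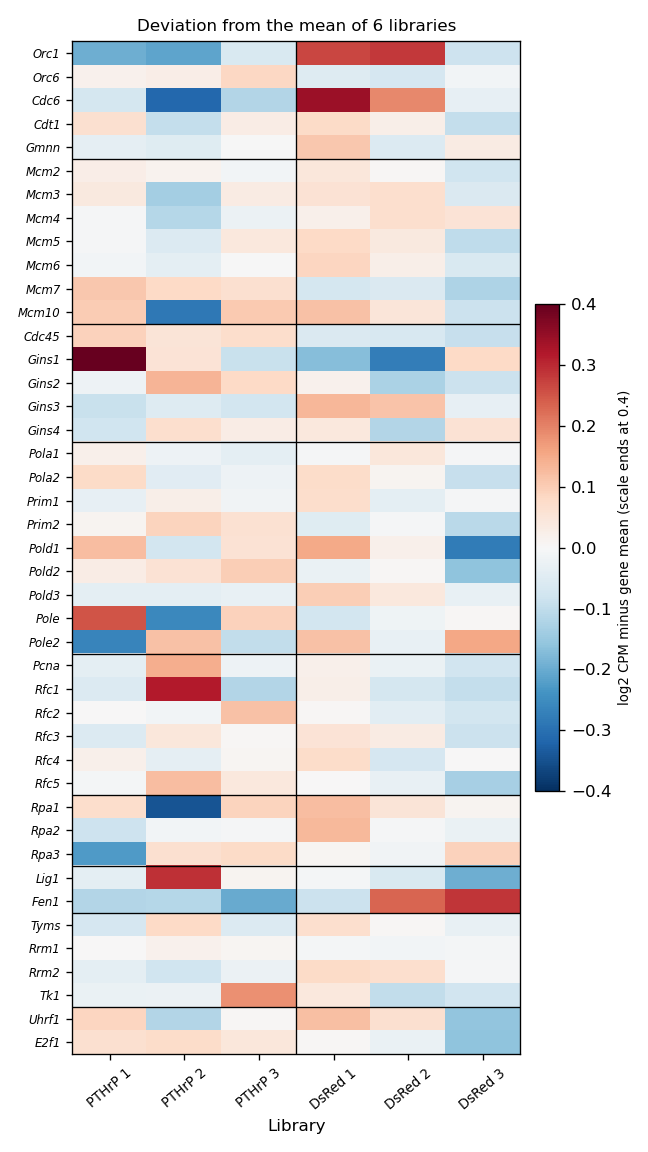
Deviation of each member from its own mean over 6 libraries, as log2 CPM on a colour scale that ends at 0.4, with genes down the page in order of role and libraries across. DsRed 1 is mostly above the mean and DsRed 3 mostly below it, and PTHrP 2 has opposite deviations for Lig1 and Rfc1 on one side and Rpa1 and Mcm10 on the other.

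Levels relative to gene length set the subunits of each complex beside each other, as CPM per kilobase (kb) of exon in the GENCODE M21 annotation. Pcna had the highest level of all members, 193 ± 13.7 CPM per kb in PTHrP and 185 ± 6.21 in DsRed (SD, n = 3 each), and Fen1 the lowest, 1.91 ± 0.0664 in PTHrP and 2.35 ± 0.317 in DsRed. Genes on the opposite strand cover 84.2% of the exon bases of Fen1, so its counts and its place on this scale are uncertain. The 6 subunits of the MCM2-7 ring lay close together, from 88.4 ± 3.55 (Mcm4) to 132 ± 1.74 (Mcm6) in PTHrP and from 94.4 ± 1.64 (Mcm4) to 135 ± 6.89 (Mcm6) in DsRed, and each overlapped its neighbour in order over the 6 libraries.

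GINS, whose 4 subunits form 1 complex, spread much more widely. Gins4 was at 47.6 ± 2.48 CPM per kb in PTHrP and 47.3 ± 3.14 in DsRed, and Gins1 at 4.38 ± 0.786 in PTHrP and 3.68 ± 0.479 in DsRed. Gins2 lay between them at 10.6 ± 0.570 in PTHrP and 9.71 ± 0.511 in DsRed, but Gse1 on the opposite strand covers 67.3% of its exon bases. Gins4 and Gins2 did not overlap over the 6 libraries, and neither did Gins2 and Gins3, while Gins3 and Gins1 did. In the polymerase alpha-primase complex Prim1 was highest, at 34.6 ± 0.683 in PTHrP and 35.0 ± 1.36 in DsRed, and Prim2 lowest, at 7.36 ± 0.195 in PTHrP and 6.83 ± 0.248 in DsRed. No neighbours in that order overlapped. Rrm2 was at 102 ± 2.09 in PTHrP and 109 ± 3.27 in DsRed, above Rrm1 at 42.9 ± 0.195 in PTHrP and 42.3 ± 0.0860 in DsRed. That order rests on the annotated lengths, 2771 exon bases for Rrm2 and 11012 for Rrm1. In CPM it was the reverse, with Rrm2 at a mean of 283 in PTHrP and 302 in DsRed and Rrm1 at 472 and 466. Lengths count every annotated exon, so a gene with long rare exons is placed too low on this scale.

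**Figure D4:**
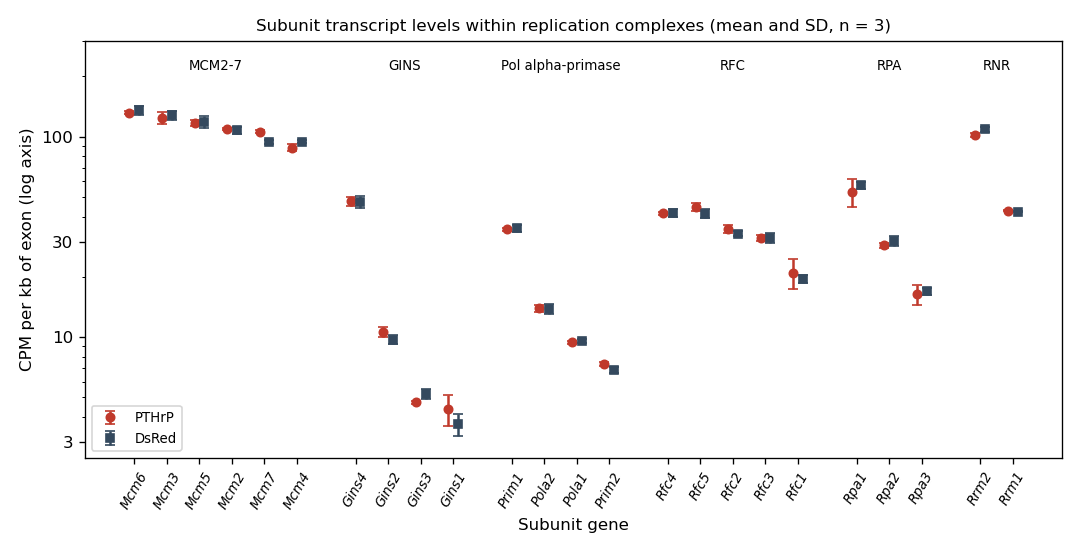
CPM per kb of exon (log axis) of the subunit genes of 6 complexes, mean and SD of 3 PTHrP libraries (circles) and 3 DsRed libraries (squares). The MCM2-7 genes sit between 88.4 and 135, while the GINS genes run from 47.6 down to 3.68.

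Other genes of the pathway gave no call either. Of 75 genes in 6 further lists (origin licensing and firing, fork factors, nucleotide supply, replication-coupled chromatin, E2F and pocket proteins, and recombination at forks), 74 were tested and 0 passed with edgeR. An unadjusted p under 0.05 was seen for 9 of the 74, 6 higher and 3 lower, or 12.2%. The share was 8.9% of all genes tested and 13% of those at or above the lowest member's level. The median log2 fold change of the 74 was -0.01. Slbp, which binds the stem-loop of replication-dependent histone mRNAs, had 285, 265 and 287 CPM in PTHrP libraries and 329, 323 and 312 CPM in DsRed libraries, a log2 fold change of -0.20 (edgeR adjusted p = 0.337). Rnaseh2a, the catalytic subunit of the nuclease that removes RNA from DNA, had 54.5, 53.7 and 52.6 CPM in PTHrP libraries and 44.8, 47.3 and 46.8 CPM in DsRed libraries, a log2 fold change of 0.21 (edgeR adjusted p = 0.370). Tk2, the mitochondrial thymidine kinase, had a log2 fold change of 0.34 (edgeR adjusted p = 0.370). The E2F and pocket protein list had negative fold changes for 10 of its 12 genes, with a median of -0.09 and no unadjusted p under 0.05, where 48.7% of all genes tested had positive ones. PTHrP replicate 2 was the lowest of the 6 libraries for 6 of the 12, and without it 8 of the 12 were negative, with a median of -0.02. Tfdp1, the dimer partner of E2F proteins, had the smallest p of that list, with -0.16 (edgeR adjusted p = 0.567).

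The phases before and after S were set beside the members. Of 25 G2/M and mitotic genes 0 passed with edgeR and 4 had an unadjusted p under 0.05, 3 higher and 1 lower, or 16% against 8.9% of all genes tested and 13% of those at or above the lowest member's level. Their median log2 fold change was 0.0049. Aurka, a mitotic kinase, had 0.16 (edgeR adjusted p = 0.385), and Ube2c, a ubiquitin-conjugating enzyme of mitotic exit, had -0.16 (edgeR adjusted p = 0.414). Of 8 D and E cyclins and their kinases 0 passed with edgeR and 3 had an unadjusted p under 0.05, 1 higher and 2 lower. That was 37.5%, against 8.9% of all genes tested and 13% of those at or above the lowest member's level. The list's median log2 fold change was -0.10. Cdk6 averaged 0.57 CPM in PTHrP and 0.73 CPM in DsRed libraries, and Ccnd1 0.27 CPM and 0.26 CPM. Their SE was 0.45 and 0.64, so these 2 values are imprecise. Ccne2, cyclin E2, which acts with CDK2 at S phase entry, had 97.4, 98.8 and 104 CPM in PTHrP libraries and 137, 118 and 122 CPM in DsRed libraries. Its groups did not overlap, and the log2 fold change of -0.33 (SE 0.07, interval -0.48 to -0.18, edgeR adjusted p = 0.202) was close in size to that of Cdc6. Without PTHrP replicate 2, Ccne2 passed, at -0.32 (edgeR adjusted p = 0.0253). Cdk4, a partner kinase of the D cyclins, had 0.15 (edgeR adjusted p = 0.406). Whether the lists differ from each other was not tested.

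**Figure D5:**
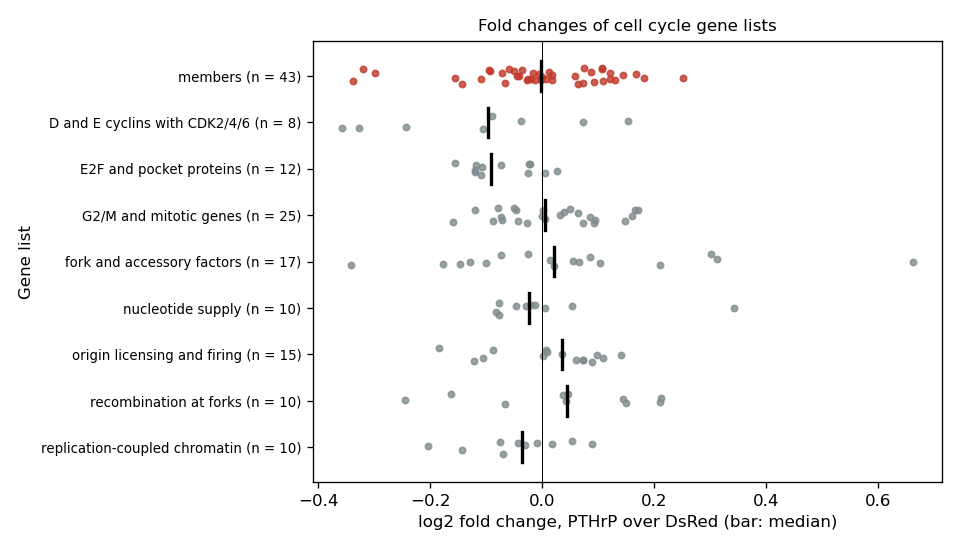
Log2 fold change, PTHrP over DsRed, of each tested gene (points) in the 43 members and 8 other cell cycle lists, with the median as a bar. All medians lie between -0.10 and 0.05, and the members spread from -0.34 to 0.25 around 0.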

How the data were processed

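The deposited table gives unnormalized read counts for each gene in 6 libraries. The submitters' processing notes name bcl2fastq, STAR, Subread featureCounts 2.0.3 and GRCm38. Which annotation and strand setting they used is not given in the sources used here. Titles gave the groups and replicate numbers. Separate cultures are stated nowhere in the labels, and p-values therefore reflect the spread of these libraries alone, which may be technical. No 2 libraries agreed within sampling noise (chi-square per gene 9.08 to 68.6). The table had 55774 rows, of which 287 repeated an Ensembl identifier and were dropped.

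Genes were filtered with filterByExpr and scaled with TMM factors, and tested with the edgeR 4.0.16 quasi-likelihood F-test (robust, group term, two-sided, R 4.3.3), Benjamini-Hochberg adjustment over 21141 genes and a threshold of 0.05. SE was approximated as the log2 fold change over the root of F, and 95% intervals use the test's degrees of freedom. CPM values are TMM-scaled. DESeq2 1.42.0 and limma-voom 3.58.1 were run as alternatives, with other scalings, filters, a replicate term and each library left out. Scripts were tested on simulated counts. Positions, exon lengths and overlaps are from GENCODE M21 (GRCm38), and promoters from RefSeq (GRCm38.p6). Values per library are given for 6 fixed members, for the 8 with the smallest p and for the member of each role with the largest fold change, and promoters for the fixed members and the 8 with the smallest p where they hold an E2F motif, while Pole, Rrm1 and the library patterns were chosen after their values were seen. The members and lists were chosen with earlier results of these data known.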

Additional observations from a re-analysis of the deposited data

How the results depend on the processing

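The count of members that passed was 0 in either direction under every alternative except no filter on low counts, where 1 member with a lower level in PTHrP (Cdc6) passed. The count over all genes was 9 in the fit as reported, 14 with library sizes alone, 220 with no filter on low counts, 136 with DESeq2 and 18 with limma-voom, and 2 to 213 (0.00877% to 0.954%) when each library was left out in turn, with 0 members passing in all 6 of those fits. The median log2 fold change of the members lay between -0.03 and 0.03 over the fits without 1 library. The log2 fold change of Cdt1, -0.0014 as reported, was 0.0052 with library sizes alone and 0.0066 with no filter, and -0.048 to 0.047 without 1 library. Of the 43 members, 16 had a sign that reversed when some library was left out. Among them 4 were genes with values per library under the naming rule, Cdt1, Mcm2 (-0.017 to 0.043), Rfc1 (-0.037 to 0.19) and Rpa1 (-0.19 to 0.021). The causes were not tested. The sample titles give replicate numbers but no pairing. Deviations of same-numbered libraries correlated at 0.02, -0.11 and 0.02, and those of differently numbered libraries at -0.15 to 0.13. Such values cannot show whether libraries were handled in pairs. With the replicate number as a block 7 genes passed and 0 members, and the members' median was -0.0019. With 3 libraries a group, precision limits Fen1 and Gins1 most, which had 402 to 686 counts per library.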
